A study of Drosophila melanogaster with 6 samples.

Results

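Neuropeptide precursor genes of the *Drosophila* larval central nervous system (CNS) were examined in RNA-seq of the *Alk* mutant Alk-YS and of its control. The members were a fixed list of 37 gene names, chosen with earlier results of these data known. Of these names, 35 were found among the 13416 genes of the comparison table. A mean of at least 10 normalized counts, the filter for testing, was reached by 32 of the 35, out of 9668 genes tested in all. Alk is a receptor tyrosine kinase activated by the secreted ligand Jelly belly. Alk-YS larvae were homozygous for an allele, made by CRISPR/Cas9 editing, that puts a serine in place of a tyrosine of the kinase domain, and w1118 larvae, labelled as control, carried no such change. Each group had 3 libraries of total RNA, each from a pool of 40 to 45 dissected CNSs of larvae in instar 3, raised on standard food without treatment, so single animals were not resolved.

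Neuropeptides are cut from larger precursor proteins by the prohormone convertase amontillado, often amidated at their C terminus, packed into dense-core vesicles and released to act mostly on G protein-coupled receptors. In the larval CNS most precursors are made in small, fixed sets of neurons, some of which release the peptide into the circulation as a hormone. The transcript level of such a gene in whole-CNS RNA therefore comes from few cells, and fewer cells of a type cannot be told apart here from less RNA per cell.

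Transcripts of 3 precursor genes were higher in Alk-YS CNSs than in w1118 CNSs beyond the replicate spread: *Nplp1*, *Hug* and *Pburs*. These 3 genes are 9.38% of the 32 members tested. Over all genes tested, 1.26% were called higher in Alk-YS and 2.97% were called in either direction (limma on log2 values, Benjamini-Hochberg adjusted p under 0.05). No member was called lower, against 1.71% of all genes, although *Nplp4* and *Eh* had all 3 Alk-YS libraries below all 3 w1118 libraries. Positive log2 fold changes were found for 27 members and negative ones for 5, with a median of 0.21, whereas the median over all genes tested was 0.008 and 51.6% of them had a positive value. Groups that did not overlap, with Alk-YS higher, were found for 11 members (34.4%), against 9.41% of all genes. Groups that did not overlap, with Alk-YS lower, were found for 2 members (6.25%), against 10.1% of all genes. The other 19 members had overlapping groups. With DESeq2 on recovered reads 9 members were called, 8 of them higher (*Nplp1*, *Hug*, *Pburs*, *Dsk*, *Proc*, *Mip*, *Tk* and *FMRFa*) and *Nplp4* lower, against 6.33% of all genes in either direction and 2.68% higher. An unadjusted p under 0.05 was reached by 14 members (43.8%), against 13.8% of all genes. Because the members were chosen with earlier results known, these shares describe the list and carry no test.

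**Figure D1:**
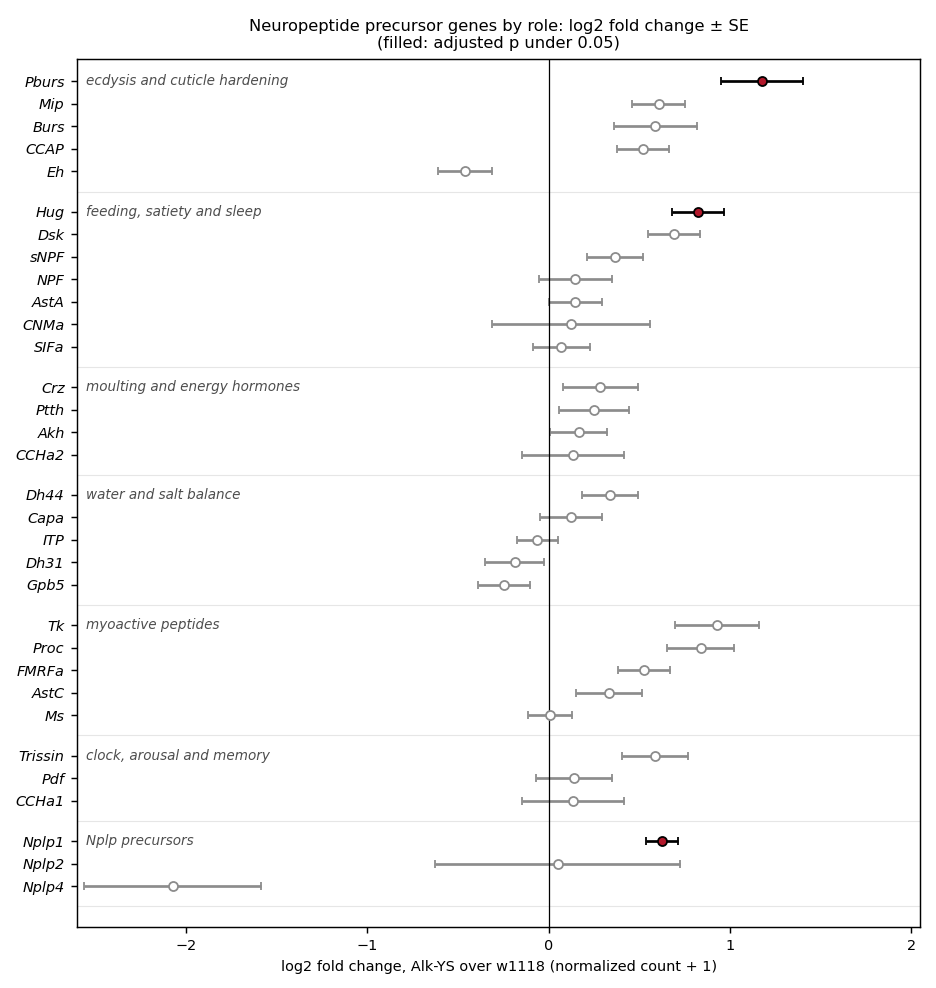
Log2 fold change of Alk-YS over w1118 on the horizontal axis for the 32 tested neuropeptide precursor genes, grouped by role of the peptide; points are limma estimates, bars are 1 standard error and filled points passed an adjusted p of 0.05. *Nplp1*, *Hug* and *Pburs* are filled, and *Nplp4* at -2.07 lies farthest to the left.

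The levels per gene length, in FPKM (fragments per kilobase of gene length, scaled to the size of the library), spanned a wide range. *Akh*, which encodes the adipokinetic hormone of the corpora cardiaca, the endocrine cells attached to the brain that mobilise stored fuel, was the most abundant at 144 FPKM over the 6 libraries. It was followed by *Capa* (85.0 FPKM), *Hug* (75.1 FPKM), *SIFa* (65.6 FPKM), *Nplp1* (59.8 FPKM), *Proc* (48.8 FPKM), *Ms* (45.9 FPKM) and *Crz* (40.4 FPKM). *Pburs* (4.89 FPKM), *Tk* (3.36 FPKM), *CCHa1* (1.63 FPKM) and *CNMa* (0.527 FPKM) were the least abundant of those tested. Along this order only *Akh* over *Capa*, *Tk* over *CCHa1* and *CCHa1* over *CNMa* were neighbours whose 6 libraries did not overlap, so most adjacent ranks cannot be told apart. The median of the members was 18.3 FPKM, against 13.5 FPKM over all genes tested. The 13 members whose groups did not overlap had mean levels between 3.36 and 75.1 FPKM and were therefore spread over most of that range.

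**Figure D2:**
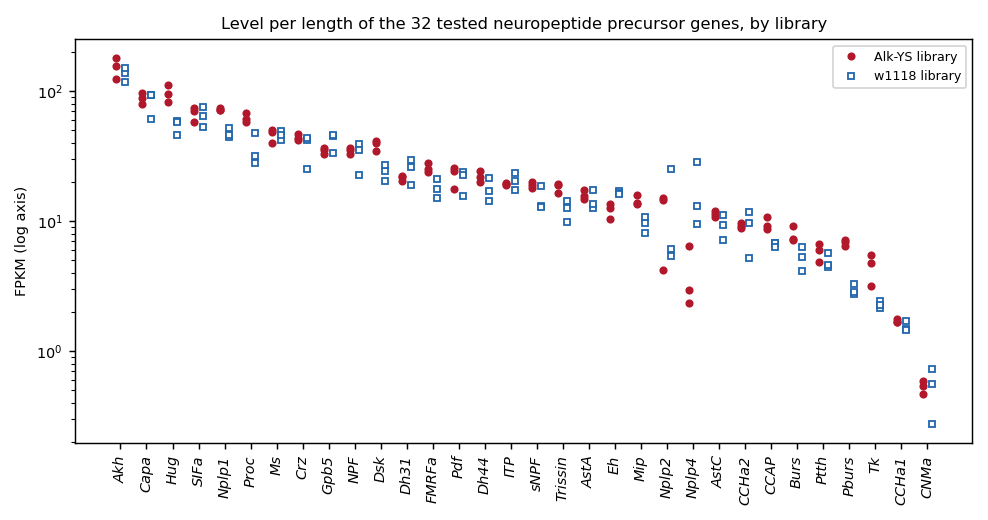
FPKM on a logarithmic axis for each of the 32 tested neuropeptide precursor genes, ordered by mean level; filled circles are the 3 Alk-YS libraries and open squares, to their right, the 3 w1118 libraries. *Akh* stands at the top with 144 FPKM and *CNMa* at the bottom with 0.527 FPKM, and *Pburs*, *Hug* and *Nplp1* have their Alk-YS circles above their w1118 squares.

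Position and length of these genes were not used to choose them, and are given as a description. None of the tested members lies on the X chromosome, which held 16.6% of all genes tested, while 16 lie on 3R, which held 24.7%. The other tested members lie on 2L (8), 2R (4) and 3L (4). The median log2 fold change was 0.22 for members on 3R, 0.29 on 2L, 0.30 on 2R and 0.14 on 3L. Gene models of the members were short, with a median length of 1080 bases against 2140 bases for all genes tested.

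Peptides of ecdysis, the shedding of the old cuticle, and of hardening of the new one included 5 tested members. Groups did not overlap with Alk-YS higher for 4 of them (80%, against 9.41% of all genes). For 1, *Eh*, they did not overlap with Alk-YS lower (against 10.1% of all genes). Only *Pburs* was called (20%, against 2.97% of all genes). *Pburs* (2L:14416729-14417331, minus strand, BDGP6) encodes the β subunit of bursicon, the heterodimeric hormone that hardens and darkens the new cuticle. It had 81.1, 77.9 and 72.6 normalized counts in Alk-YS replicates 1 to 3, against 37.4, 31.0 and 32.5 in w1118 replicates 1 to 3. The lowest Alk-YS library was well above the highest w1118 library, and *Pburs* rose in Alk-YS CNSs with a log2 fold change of 1.18 (SE 0.23, n = 3 each, limma adjusted p = 0.0355). At this low level the call was not firm: without any 1 of the 6 libraries the adjusted p lay between 0.0591 and 0.149, and with edgeR on recovered reads it was 0.0629.

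*Burs* (3R:21769518-21770279, plus strand), which encodes the bursicon α subunit, had 96.8, 122 and 95.8 normalized counts in Alk-YS libraries, against 83.6, 71.0 and 55.1 in w1118 libraries. Its groups were separate by a narrower gap, and it did not pass the test (log2 fold change 0.59, SE 0.23, adjusted p = 0.291). Per gene length, the ratio of *Pburs* to *Burs* was 0.984, 0.752 and 0.889 in Alk-YS libraries, against 0.525, 0.513 and 0.692 in w1118 libraries. These ratios did not overlap, and their difference had an exact two-sided permutation p of 0.1, the smallest that 3 against 3 libraries allow. The pair was chosen after its values were seen. The ratio of *CCAP*, described next, to *Burs* had means of 1.235 in Alk-YS and 1.294 in w1118 libraries. That ratio overlapped between groups (exact two-sided permutation p = 0.7). Its genes are from a neuron group assembled with the values known, and 3 against 3 libraries cannot show that it was unchanged.

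*CCAP* (3R:22700582-22702084, minus strand) encodes crustacean cardioactive peptide, which takes part in the motor programme of ecdysis. It had 281, 238 and 227 normalized counts in Alk-YS libraries, against 177, 177 and 163 in w1118 libraries (log2 fold change 0.52, SE 0.14, adjusted p = 0.126). *Mip* (3L:17344947-17349666, minus strand), which encodes myoinhibitory peptides, had 400, 392 and 464 normalized counts in Alk-YS libraries, against 281, 235 and 311 in w1118 libraries (log2 fold change 0.61, adjusted p = 0.0798). Both genes were separate between groups in every library without passing the test, and 6.24% of the exon bases of *CCAP* overlap the gene *CG6972* on the opposite strand. Of the other tested members, *SIFa* (21.1%, *Start1*), *ITP* (6.32%, *CG4622*) and *Ptth* (2.13%, *cold*) also share exon bases with a gene on the opposite strand, and *Nplp2* was not looked up because its ID was not matched in the annotation used.

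*Eh* (3R:17446642-17448858, minus strand) encodes eclosion hormone, which acts upstream of the *CCAP* neurons and is made by a pair of ventromedial brain neurons. It had 152, 184 and 196 normalized counts in Alk-YS libraries, against 251, 241 and 237 in w1118 libraries. All Alk-YS libraries were lower, the opposite of the other ecdysis genes, but the difference did not pass the test (log2 fold change -0.46, SE 0.15, 95% interval -0.80 to -0.12 before adjustment, adjusted p = 0.194).

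The first 4 of these genes mark overlapping sets of neurons. In the larval ventral nerve cord, *CCAP* neurons of the abdominal segments co-express *CCAP*, *Burs*, *Pburs* and *Mip* in overlapping subsets. The summed normalized counts of the 4 genes were 859, 830 and 859 in Alk-YS libraries, against 579, 514 and 562 in w1118 libraries. The median log2 fold change of the 4 was 0.60. The neuron groups were assembled with the values known, so these sums carry no test. They are whole-CNS values, and the part of other cells in them was not tested.

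**Figure D3:**
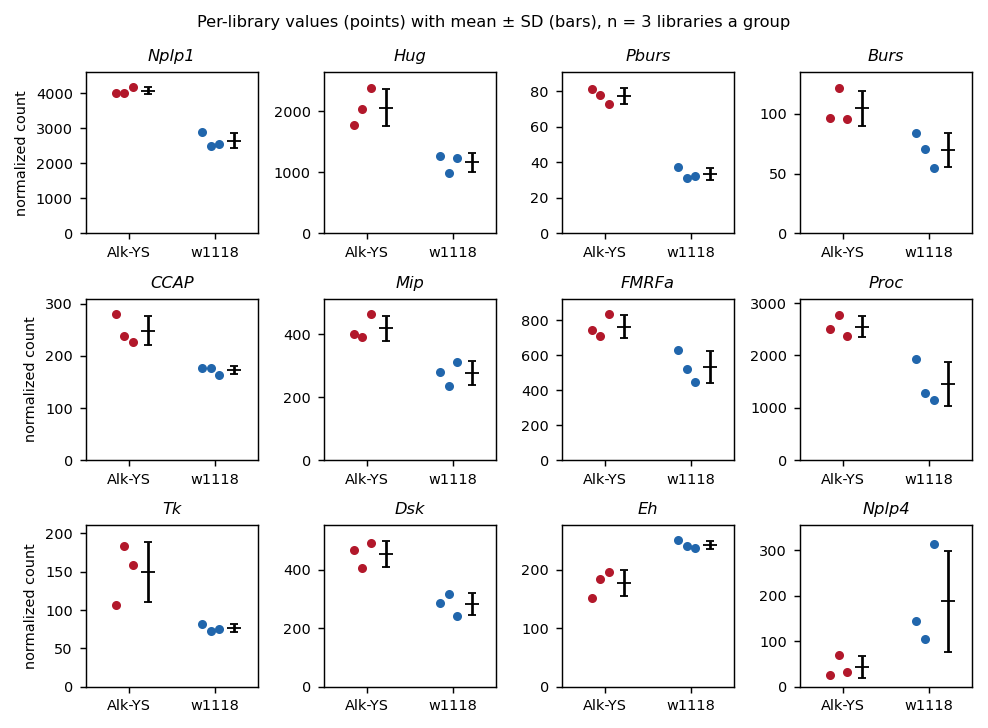
Normalized counts on the vertical axis, which starts at 0 in each panel, for 12 neuropeptide precursor genes; points are single libraries with Alk-YS to the left of w1118, and bars are the mean ± SD (n = 3 libraries each). *Nplp1*, *Hug* and *Pburs* passed the test. In the panels of *Eh* and *Nplp4* the Alk-YS points lie below those of w1118. All 12 genes are from the 13 members whose groups did not overlap, and the 19 members with overlapping groups are not shown.

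*Nplp1* (2R:25032377-25040377, plus strand) encodes a neuropeptide-like precursor and is a classical marker of the apterous neurons of the ventral nerve cord. It had 4023, 3999 and 4183 normalized counts in Alk-YS libraries, against 2893, 2487 and 2553 in w1118 libraries. Means were 4068 ± 99.8 in Alk-YS CNSs and 2645 ± 218 in w1118 CNSs (SD, n = 3 each). The Alk-YS libraries were close to each other and all far above w1118, and *Nplp1* rose with a log2 fold change of 0.62 (SE 0.09, adjusted p = 0.0107). It was the member with the smallest adjusted p. The call was lost without Alk-YS replicate 1 (adjusted p = 0.0579) and without Alk-YS replicate 3 (adjusted p = 0.0659), and the log2 fold change stayed between 0.58 and 0.69 whichever library was left out.

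*FMRFa* (2R:9906294-9910457, plus strand) encodes FMRFamide-related peptides, which act on muscle, and marks the thoracic Tv neurons, which belong to the same apterous clusters as *Nplp1* cells. It had 742, 711 and 835 normalized counts in Alk-YS libraries, against 629, 522 and 448 in w1118 libraries. The groups did not overlap and the test was not passed (log2 fold change 0.53, SE 0.14, adjusted p = 0.121). The FPKM ratio of *Nplp1* to *FMRFa* was 2.86, 2.97 and 2.65 in Alk-YS libraries, against 2.43, 2.52 and 3.01 in w1118 libraries. These ratios overlapped (exact two-sided permutation p = 0.5). The pair is from a neuron group assembled with the values known, and 3 against 3 libraries cannot show that the ratio was unchanged.

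Transcription factors that specify apterous neurons were measured as a list of 6 peptide cell identity factors. *nab*, a co-factor of the zinc finger protein squeeze in these neurons, had 1886, 1986 and 1931 normalized counts in Alk-YS libraries, against 1372, 1408 and 1292 in w1118 libraries. It rose with a log2 fold change of 0.51 (SE 0.08, adjusted p = 0.0174). It was the one called gene of the list (16.7%, against 2.97% of all genes). The list had 2 positive and 4 negative log2 fold changes, with a median of -0.05. *sqz*, which encodes squeeze, had means of 1023 ± 24.9 in Alk-YS CNSs and 769 ± 78.7 in w1118 CNSs (adjusted p = 0.0853). *ap*, *eya* and *kn* had log2 fold changes of -0.003, -0.09 and -0.10 with adjusted p values of 0.994, 0.837 and 0.837. These factors are also expressed in other cells of the CNS, so their levels are not those of peptide neurons alone.

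None of the other *Nplp* precursors was called. *Nplp4* (2L:2008414-2009072, plus strand) had 25.8, 70.5 and 32.6 normalized counts in Alk-YS libraries, against 144, 104 and 314 in w1118 libraries. The groups did not overlap but w1118 replicate 3 stood far above the other control libraries, and *Nplp4* did not pass the test (log2 fold change -2.07, SE 0.49, adjusted p = 0.0751). Without Alk-YS replicate 2 the adjusted p was 0.0494, and DESeq2 on recovered reads gave 0.000773. *Nplp2* had 53.5, 190 and 183 normalized counts in Alk-YS libraries, against 78.1, 68.0 and 316 in w1118 libraries. It overlapped fully, and its 95% interval of the log2 fold change, -1.52 to 1.62, was the widest among the members. *Nplp3* was close to absent, with at most 2 reads in any library.

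Feeding and sleep peptides included 7 tested members, all with positive log2 fold changes and a median of 0.15. *Hug* (3R:12526188-12529076, plus strand) encodes the pyrokinin precursor hugin and marks a cluster of subesophageal zone neurons that link taste input to feeding and locomotion. It had 1774, 2031 and 2377 normalized counts in Alk-YS libraries, against 1273, 988 and 1229 in w1118 libraries. Every Alk-YS library was above every w1118 library, and *Hug* rose with a log2 fold change of 0.82 (SE 0.14, adjusted p = 0.0232). Leaving out 1 library gave an adjusted p of 0.0691 without Alk-YS replicate 2, 0.088 without Alk-YS replicate 3, 0.0689 without w1118 replicate 1 and 0.0776 without w1118 replicate 2, with log2 fold changes between 0.71 and 0.93. Without the mean-variance trend in the limma fit the adjusted p was 0.0641.

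*Dsk* (3R:4189692-4190260, minus strand) encodes drosulfakinins, the cholecystokinin-like satiety peptides made in insulin-producing cells and other brain neurons. It had 467, 405 and 490 normalized counts in Alk-YS libraries, against 286, 317 and 242 in w1118 libraries. The groups did not overlap and the adjusted p, 0.0513, lay just outside the threshold (log2 fold change 0.69). In the FPKM table it was called, with an adjusted p of 0.0334.

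*sNPF*, short neuropeptide F, which promotes feeding and growth, had 917, 1009 and 954 normalized counts in Alk-YS libraries, against 955, 662 and 652 in w1118 libraries, so that w1118 replicate 1 lay within the Alk-YS range (log2 fold change 0.37, adjusted p = 0.352). *NPF* (log2 fold change 0.15, 95% interval -0.32 to 0.61), *AstA* (0.15, -0.20 to 0.49) and *SIFa* (0.07, -0.30 to 0.44) overlapped between groups. *NPF* is the homologue of vertebrate neuropeptide Y, allatostatin A restrains feeding, and *SIFa* is made in a few cells of the pars intercerebralis. *CNMa* overlapped as well, with 18.4, 21.4 and 23.3 normalized counts in Alk-YS libraries, against 22.0, 29.0 and 10.8 in w1118 libraries. *RYa*, the precursor of RYamides, had between 1 and 3 reads in each library and was not tested.

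Myoactive peptides included 5 tested members, with a median log2 fold change of 0.53. *Proc* (2L:7864642-7871432, minus strand) encodes proctolin, a pentapeptide co-transmitter of motor neurons that strengthens muscle contraction. It had 2508, 2772 and 2368 normalized counts in Alk-YS libraries, against 1940, 1289 and 1150 in w1118 libraries. The groups did not overlap, with w1118 replicate 1 nearest to Alk-YS, and the test was not passed (log2 fold change 0.84, SE 0.19, adjusted p = 0.0621). Without w1118 replicate 1 the log2 fold change was 1.06 and the adjusted p 0.0142.

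*Tk* (3R:11994175-12005473, minus strand) encodes tachykinins of brain interneurons and gut endocrine cells. It had 107, 184 and 159 normalized counts in Alk-YS libraries, against 81.4, 72.0 and 75.8 in w1118 libraries. The w1118 libraries were nearly equal and the Alk-YS libraries were all higher but dispersed (log2 fold change 0.93, SE 0.23, adjusted p = 0.0893). *AstC*, allatostatin C, had 301, 269 and 285 normalized counts in Alk-YS libraries, against 278, 232 and 177 in w1118 libraries, and the groups overlapped. *Ms*, myosuppressin, which inhibits visceral muscle, had 971, 1232 and 1181 normalized counts in Alk-YS libraries, against 1215, 1024 and 1123 in w1118 libraries. Its log2 fold change was 0.005 with a 95% interval of -0.27 to 0.29, and its sign was negative under other scalings.

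Peptides of moulting and energy balance were 4 in number, and none had separate groups. *Akh* had 1722, 1376 and 2003 normalized counts in Alk-YS libraries, against 1537, 1685 and 1299 in w1118 libraries (log2 fold change 0.17, 95% interval -0.20 to 0.53). *Ptth*, the prothoracicotropic hormone that drives ecdysone synthesis in the ring gland, had 140, 156 and 114 normalized counts in Alk-YS libraries, against 133, 104 and 107 in w1118 libraries. *Crz*, corazonin of the dorsolateral brain, had 571, 588 and 629 normalized counts in Alk-YS libraries, against 569, 594 and 345 in w1118 libraries. The low value of w1118 replicate 3 set the difference of *Crz*. *CCHa2*, a nutrient-responsive peptide made in the fat body, gut and brain that promotes insulin release, had 266, 293 and 277 normalized counts in Alk-YS libraries, against 292, 357 and 157 in w1118 libraries, and its sign turned negative without w1118 replicate 3.

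Ring gland markers, 7 genes of steroid and juvenile hormone synthesis, which are relevant beside *Akh* and *Ptth*, had summed normalized counts of 9975 to 20126 in Alk-YS libraries, against 13989 to 21706 in w1118 libraries, and none was called. Fat body markers, relevant beside *CCHa2*, had negative log2 fold changes for all 7 genes (median -2.22). Of these, *Fbp2* was called (14.3%, against 2.97% of all genes). Sums of the fat body markers lay between 6369 and 40008 in Alk-YS libraries and between 18059 and 137688 in w1118 libraries and overlapped between groups. Muscle markers were also negative for all 7 genes (median -0.84), with *Mlc1* and *Mlc2* called (28.6%, against 2.97% of all genes). All 7 had an unadjusted p under 0.05 (against 13.8% of all genes), and 5 were separate and lower (against 10.1%). Sums of the muscle markers did not overlap, with 1653 to 2320 normalized counts in Alk-YS libraries and 2972 to 3992 in w1118 libraries. The part of attached tissue in the values of *Nplp2*, *Nplp4* and *CCHa2* was not tested.

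Peptides of water and salt balance included 5 tested members, and their groups overlapped without exception. *Dh44*, a corticotropin-releasing factor-like diuretic hormone of the pars intercerebralis, had 1087, 1216 and 1001 normalized counts in Alk-YS libraries, against 856, 718 and 1064 in w1118 libraries (log2 fold change 0.34, adjusted p = 0.395). *Gpb5*, a glycoprotein hormone β subunit, had 581, 516 and 556 normalized counts in Alk-YS libraries, against 723, 724 and 532 in w1118 libraries (log2 fold change -0.25, adjusted p = 0.547). *Dh31*, a calcitonin-like diuretic hormone, had 550, 591 and 590 normalized counts in Alk-YS libraries, against 791, 697 and 514 in w1118 libraries. *Capa*, which marks the abdominal Va neurons, had 1394, 1137 and 1284 normalized counts in Alk-YS libraries, against 1335, 1335 and 887 in w1118 libraries. *ITP*, ion transport peptide of lateral neurosecretory cells, had 1894, 1850 and 1898 normalized counts in Alk-YS libraries, against 2265, 1983 and 1684 in w1118 libraries. In 4 of these 5 genes the lowest control value was that of w1118 replicate 3, whereas for *Dh44* it was the highest. The median log2 fold change of the 5 genes was -0.06.

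Peptides of clock, arousal and memory included 3 tested members. *Trissin* (3R:15484730-15485396, minus strand), which encodes a cysteine-rich peptide, had 189, 217 and 221 normalized counts in Alk-YS libraries, against 163, 144 and 113 in w1118 libraries. Its groups did not overlap but it did not pass the test (log2 fold change 0.59, adjusted p = 0.169). *Pdf*, pigment-dispersing factor of the lateral clock neurons, had 252, 362 and 343 normalized counts in Alk-YS libraries, against 335, 318 and 219 in w1118 libraries. *CCHa1* had 31.3, 29.9 and 29.8 normalized counts in Alk-YS libraries, against 26.4, 26.0 and 30.5 in w1118 libraries. The groups of both overlapped. *amn*, a memory gene, had between 1 and 5 reads in each library and was not tested.

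By neuron group, the median log2 fold change of the marker genes was 0.60 for *CCAP* and bursicon neurons and 0.58 for Tv and apterous neurons. All members of these groups were separate and higher, as was *Hug* of the subesophageal zone, against 9.41% of all genes. The groups held only 4, 2 and 1 members and were assembled with the values known. *Eh*, alone in the group of ventromedial brain neurons, was separate and lower, against 10.1% of all genes. The pars intercerebralis, marked by *Dh44*, *Dsk*, *SIFa* and *Ms*, had a median of 0.20 with *Dsk* alone separate. A mixed set of other brain neurons, marked by *Crz*, *ITP*, *Ptth*, *Pdf* and *NPF*, had a median of 0.15 and no separate member. It included the lateral clock neurons and was not limited to neurosecretory cells. *Capa* of the abdominal Va neurons (0.12) and *Akh* of the corpora cardiaca (0.17), each alone in its group, overlapped between Alk-YS and w1118 libraries. Several tested members, among them *Proc*, *Trissin*, *AstA* and *Dh31*, were placed in no neuron group. Differences between these groups were not tested.

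The members' pattern was also read library by library. Set against the w1118 mean of each gene, the median member stood at 0.24, 0.30 and 0.31 on the log2 scale in Alk-YS libraries, against 0.17, 0.00 and -0.21 in w1118 libraries. The median over all genes tested lay within 0.01 of 0 in every library. Among the w1118 libraries, 20 members were lowest in replicate 3, 12 in replicate 2 and 0 in replicate 1. The coefficient of variation had a median of 9.60% in Alk-YS libraries and 17.5% in w1118 libraries, and it was larger in w1118 for 25 of 32 members. Without w1118 replicate 3, 21 members had a positive log2 fold change and the median was 0.18. The count of positive values therefore rested partly on that library, while *Hug* and *Nplp1* were still called without it.

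**Figure D4:**
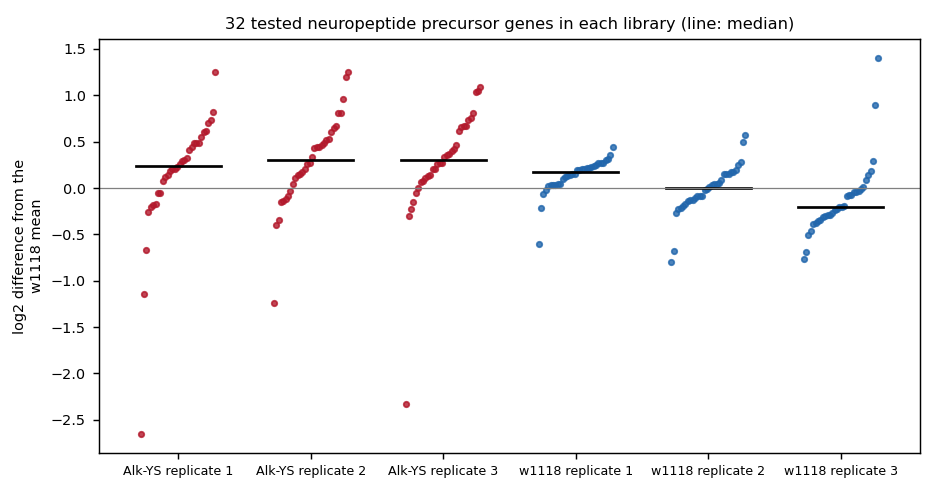
Log2 difference from the w1118 mean for each of the 32 tested neuropeptide precursor genes (points, sorted within a library), with the median as a line; the 3 Alk-YS libraries are on the left and the 3 w1118 libraries on the right. Medians are 0.24, 0.30 and 0.31 in Alk-YS and 0.17, 0.00 and -0.21 in w1118, so w1118 replicate 1 lies near the Alk-YS libraries.

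As a share of all reads assigned to genes, the members held 0.113%, 0.118% and 0.121% in Alk-YS libraries, against 0.103%, 0.0869% and 0.0876% in w1118 libraries. *Nplp1*, *Hug* and *Proc* made up 71.5% of the difference in summed normalized counts, so this share follows a few abundant genes.

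Genes that process and secrete peptides were tested as a list of 12, of which 6 had positive and 6 negative log2 fold changes, with a median of -0.0004. Of these, 1 gene was called (8.33%), against 2.97% of all genes, and the list was not tested against the precursors. *Pal2*, an amidating lyase of the last step of peptide amidation, had 3282, 4051 and 3453 normalized counts in Alk-YS libraries, against 2266, 1521 and 2317 in w1118 libraries (log2 fold change 0.84, SE 0.17, adjusted p = 0.0456). The call of *Pal2* was lost with edgeR, in the FPKM table and without any 1 library other than w1118 replicate 3. *IA-2*, *Caps*, *svr* and *7B2*, the most abundant other genes of the list, had log2 fold changes of 0.02, -0.02, -0.02 and 0.11. Separate and higher groups were found for 2 genes (16.7%, against 9.41% of all genes). The 1 separate and lower gene (8.33%, against 10.1%) was *amon*, named after its value was seen. It had 2042, 2018 and 1943 normalized counts in Alk-YS libraries, against 3229, 2277 and 2083 in w1118 libraries (log2 fold change -0.31, limma adjusted p = 0.460).

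Peptide receptors were measured for 36 genes. Limma called 0 of them, 5 had an unadjusted p under 0.05, and edgeR and DESeq2 on recovered reads also called 0. Positive log2 fold changes were found for 28 and negative ones for 8, with a median of 0.20, and 4 receptors had all Alk-YS libraries above w1118. These shares, 13.9% with an unadjusted p under 0.05 and 11.1% separate and higher, were near the 13.8% and 9.41% of all genes. The median of 0.20 lay above the 0.008 of all genes tested and near the 0.21 of the precursors. Positive values were found for 51.6% of all genes. Set against the w1118 mean of each gene, the median receptor stood at 0.30, 0.13 and 0.28 in Alk-YS libraries, against 0.30, -0.13 and -0.17 in w1118 libraries. *AstC-R2*, *sNPF-R*, *TkR99D* and *Dh31-R*, the most abundant receptors, had log2 fold changes of 0.01, -0.35, -0.06 and 0.02. Receptors of the called peptides were looked up after the values were seen. The hugin receptor *PK2-R1* had 167, 169 and 180 normalized counts in Alk-YS libraries, against 142, 103 and 117 in w1118 libraries (log2 fold change 0.52, adjusted p = 0.214). The bursicon receptor *rk* had 148, 160 and 147 normalized counts in Alk-YS libraries, against 121, 68.0 and 117 in w1118 libraries (log2 fold change 0.61, adjusted p = 0.308). The other hugin receptor, *PK2-R2*, had 204, 122 and 179 normalized counts in Alk-YS libraries, against 133, 97 and 89.6 in w1118 libraries, which overlapped (log2 fold change 0.64, adjusted p = 0.292). *PK2-R1* and *rk* were separate between groups, and none of the 3 passed the test.

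General neuron markers had log2 fold changes with a median of -0.15 over 10 genes, and *elav* stood at 0.003. None was called by limma, and 1 had an unadjusted p under 0.05 (10%, against 13.8% of all genes). Of the 10, 2 were separate and lower in Alk-YS, against 10.1% of all genes. The 5 neuroblast markers had positive values (median 0.49, 0 called). All 5 had an unadjusted p under 0.05 (100%, against 13.8% of all genes), and 3 were separate and higher (60%, against 9.41%). Glial markers had a median of -0.10 over 6 genes, and midgut markers were nearly absent, with sums of 7.38 to 13.9 normalized counts in Alk-YS libraries and 11.8 to 32 in w1118 libraries. *dimm*, a factor of neurosecretory cells from the list of peptide cell identity factors, was named here after its value was seen. It had 17.5, 34.2 and 24.2 normalized counts in Alk-YS libraries, against 47.3, 37 and 33.5 in w1118 libraries. Its log2 fold change was -0.65, the lowest of that list (limma adjusted p = 0.491). Reads assigned to genes numbered 18770029 to 22333967 per library, and 8.56% to 13.8% of them were mitochondrial. The part of these differences in cell makeup in the peptide results was not tested.

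Of the 37 names, *Orcokinin* and *ETH* were not found in the comparison table by name. The ID of *Orcokinin* was listed under the name *CG13565*, with 865, 803 and 740 normalized counts in Alk-YS libraries and 745, 745 and 459 in w1118 libraries, and the groups overlapped because Alk-YS replicate 3 lay just under w1118 replicates 1 and 2. *ETH*, ecdysis triggering hormone of the tracheal Inka cells, was listed at 0 FPKM in all 6 libraries. In the annotation 90.5% of the exon bases of *ETH* overlap the antisense gene *asRNA:CR43257*, which had 0.668 to 0.850 FPKM in Alk-YS libraries and 0.830 to 1.497 FPKM in w1118 libraries. The leucokinin gene *Lk*, not a member, was likewise listed at 0 FPKM, with 93.0% of its exon bases under *asRNA:CR44843*. The strand setting of the counting was not stated, and the part of this overlap in the listed zeros was not tested.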

How the data were processed

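Total RNA of 3 Alk-YS and 3 w1118 CNS pools was sequenced as paired-end reads. Per the labels and the submitters' processing notes, the authors ran HISAT2 2.0.5 against Ensembl BDGP6, then counted reads per gene with featureCounts 1.5.0-p3 and compared groups with DESeq2 1.20.0. Strand setting and annotation release were not given in the sources used here. The deposited signal of a gene is its read count divided by a size factor of the library, called a normalized count here. The authors also deposited FPKM values, fragments per kilobase of gene length scaled to library size. The log2 fold changes and the p-values in the authors' deposited comparison were not used. Values of the 6 libraries were whole multiples (tolerance 0.01, 100% of values) of a library step, so reads were recovered for alternatives. The step of w1118 replicate 2 is so close to 1 that this check shows little for that library, which bears on all edgeR and DESeq2 counts.

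A gene entered the test if its normalized counts averaged 10 or more. The test was limma 3.58.1 in R 4.3.3, run on log2 of the normalized count plus a pseudocount of 1 (lmFit, eBayes with trend, two-sided), adjusted by Benjamini-Hochberg over all 9668. Fold changes are on that scale, which understates changes of low genes. The code was tested on simulated data. Alternatives used edgeR 4.0.16, DESeq2 1.42.0, other scalings, pseudocounts, filters, the FPKM table, robust eBayes (chosen after seeing the data) and leaving out each library. Depth allows a gene with 0 reads to hold up to 3 reads, which covers counting error only. Replicates are separate pools, and replicate pairs within a group differed by more than sampling noise, with a chi-square per gene of 12.8 to 95.1. The pairs with w1118 replicate 3 had 76.2 and 95.1, and no other pair was above 34.3.

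Members, roles and lists were chosen with earlier results of these data known, and the neuron groups after values were seen. Named were all members found, called genes of the pathway and marker lists, and per pathway list up to 4 more genes with the highest mean. Markers were listed for neuron, glia, neuroblast, ring gland, fat body, muscle, hemocyte, trachea, midgut and cuticle. The median log2 fold change was -0.36 for 7 hemocyte markers (*NimC1* called, -3.49, 14.3% against 2.97% of all genes). It was 0.09 for 5 tracheal markers, and 1 cuticle marker was tested (-0.77). Coordinates are those of the deposited table.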

Additional observations from a re-analysis of the deposited data

How the results depend on the processing

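The median log2 fold change of the precursor genes stayed positive under all alternatives run, between 0.18 and 0.32 when 1 library was left out. The number of precursor genes called, 3 as reported, was 9 with DESeq2 on recovered reads (8 higher, *Nplp4* lower), 5 with robust eBayes, 2 with edgeR, with no filter, with a minimum mean of 50 (*Hug* and *Nplp1* in these settings) and without the mean-variance trend (*Nplp1* and *Pburs*), 0 at an adjusted p under 0.01 and 0 to 2 when 1 library was left out. Processing and secretion genes called, 1 as reported, were 0 with edgeR, with a minimum mean of 50, without the mean-variance trend, in the FPKM table and at an adjusted p under 0.01, and 0 to 1 when 1 library was left out. All genes called, 287 as reported, were 612 with DESeq2 (259 higher), 84 at an adjusted p under 0.01 and 107 to 331 when 1 library was left out. The cause of these differences was not tested, beyond the fewer samples and the stricter threshold of the settings themselves.

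Whether the replicate numbers of the labels pair the libraries was not settled, and the main fit used no pairing. Deviations of same-numbered libraries correlated at -0.121, 0.354 and 0.408. Those of differently numbered libraries correlated between -0.481 and 0.321. A fit with the replicate block called 4 precursor genes (*Hug*, *Nplp1*, *Nplp4* and *Proc*) and 284 genes in all.

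Signs reversed for *Ms* with TMM scaling (-0.0017) and upper-quartile scaling (-0.012), and for *Nplp2* with edgeR (-0.12) and DESeq2 (-0.12). When 1 library was left out, log2 fold changes spanned -0.075 to 0.22 for *Capa*, -0.21 to 0.38 for *CCHa2*, -0.26 to 0.41 for *CNMa*, -0.17 to 0.041 for *ITP*, -0.062 to 0.11 for *Ms*, -0.085 to 0.30 for *NPF*, -0.35 to 0.75 for *Nplp2*, -0.050 to 0.30 for *Pdf* and -0.064 to 0.19 for *SIFa*. Of 577 values of single members over all settings, 525 kept direction and side of the threshold, and the 19 reversed ones belonged to these 9 genes, none of them called. Depth limits *Nplp3*, *amn* and *RYa*, which had at most 5 reads in a library.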
